A study of Mus musculus with 2 samples.

Results

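The nuclear-encoded genes of the mitochondrial respiratory chain were described in cells sorted from control and cirrhotic mouse livers. Members were chosen by gene symbol, with a pattern that takes the Nduf, Sdh, Uqcr, Cox and Atp5 subunit families and leaves out pseudogene rows, the Ndufaf assembly factors and Cox6a2. The pattern took 81 of the 31057 rows of the count tables: 37 of complex I, 4 of complex II, 8 of complex III, 15 of complex IV and 17 of complex V. The pattern uses symbols and no expression values, but it was chosen with earlier results of these data known. Both groups were C57BL/6 mice aged 16 weeks of genotype Cdh5-Cre+, mTmG +/+, in which a recombinase under the endothelial Cdh5 promoter turns on a membrane GFP. The cirrhosis group had inhaled vaporized carbon tetrachloride (CCl4), a hepatotoxin, for 12 weeks. Each group gave 1 single-cell library, made from the livers of 3 mice together after a sort for living non-parenchymal cells with GFP. With 1 library per group no test between groups was possible, and the 95% intervals below cover counting error only.

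The respiratory chain sits in the inner mitochondrial membrane. Complexes I (NADH dehydrogenase) and II (succinate dehydrogenase) pass electrons to ubiquinone, complex III passes them on to cytochrome c, and complex IV (cytochrome c oxidase) reduces oxygen. Complex V, the ATP synthase, uses the proton gradient that complexes I, III and IV build. Most subunits are encoded in the nucleus and imported, while 13 subunits of complexes I, III, IV and V are made from mitochondrial DNA, so each of these complexes needs transcripts from both genomes. Liver sinusoidal endothelial cells (LSECs) form the fenestrated wall of the liver capillaries, and hepatocytes, which they supply, are rich in mitochondria.

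The control library held 5642 barcodes and 45767322 UMIs (counted transcript molecules), and the cirrhosis library 8327 barcodes and 77339928 UMIs, with 17 barcode sequences present in both. Clusters were found without the 81 genes and named "-like" from marker genes. LSEC-like cells, with all 10 LSEC markers and all 8 general endothelial markers detected, counted 2884 cells in the control library and 3106 in cirrhosis, and were divided into pericentral (around the central vein), intermediate and periportal (around the portal vein) zones. The label of endothelial cells did not hold for every barcode: Kupffer cell-like (resident macrophage), monocyte or dendritic cell-like, plasmacytoid dendritic cell-like, T or NK cell-like, cholangiocyte-like (bile duct) and hepatocyte-like classes also had at least 50 barcodes in each library. Clusters that stayed unnamed held 11.2% of retained control and 14.3% of retained cirrhosis barcodes. Among them were 524 control and 839 cirrhosis endothelial cells, which are not part of the classes below. These took 2.15% and 1.38% of UMIs from LSEC markers, beside 2.40% and 1.44% in LSEC-like cells. Depth differed between the libraries, with a median of 6923 UMIs per LSEC-like cell in the control and 9924 in cirrhosis. The immediate-early gene Fos stood at 302 to 2948 CPM in the 6 control LSEC-like clusters and at 68.2 to 286 CPM in the same clusters of the cirrhosis library. The part of depth and of this difference in the results was not tested.

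Promoters are shown first for 3 members that the results turn on: Ndufa8, the member with the strongest zonal pattern, Uqcrh, the complex III member with the highest ratio, and Cox7a2l, the complex IV member with the highest ratio. RefSeq promoter windows on GRCm38.p6, from 250 bases before to 50 bases after the start site, were found for 68 of the 81 members. Capitals mark the motifs of nuclear respiratory factor 1 (NRF1, searched as GCGC and TGCGC with 1 base of any kind between them) and of ETS factors such as GABPA (searched as CCGGAAG), both known regulators of respiratory genes, on either strand.
Ndufa8 promoter, chr2:36049289-36049588, minus strand: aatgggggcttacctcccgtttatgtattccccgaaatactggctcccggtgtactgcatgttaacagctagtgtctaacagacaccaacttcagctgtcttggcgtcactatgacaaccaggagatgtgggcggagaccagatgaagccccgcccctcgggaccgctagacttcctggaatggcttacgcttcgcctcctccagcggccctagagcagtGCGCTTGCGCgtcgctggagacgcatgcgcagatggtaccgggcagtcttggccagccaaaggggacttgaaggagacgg
Uqcrh promoter, chr4:116075021-116075320, minus strand: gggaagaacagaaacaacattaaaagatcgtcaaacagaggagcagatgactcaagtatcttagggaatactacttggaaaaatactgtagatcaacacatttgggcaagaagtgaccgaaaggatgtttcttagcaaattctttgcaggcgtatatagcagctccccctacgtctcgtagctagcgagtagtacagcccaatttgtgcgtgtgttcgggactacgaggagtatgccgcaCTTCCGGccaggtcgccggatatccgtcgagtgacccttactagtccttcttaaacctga
Cox7a2l promoter, chr17:83514284-83514583, minus strand: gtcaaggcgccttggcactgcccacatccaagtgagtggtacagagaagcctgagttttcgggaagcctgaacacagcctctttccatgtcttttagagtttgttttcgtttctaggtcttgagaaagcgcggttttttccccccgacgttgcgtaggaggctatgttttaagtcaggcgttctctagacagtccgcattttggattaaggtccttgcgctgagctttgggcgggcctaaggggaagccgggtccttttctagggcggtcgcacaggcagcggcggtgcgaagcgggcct
The Ndufa8 window held an NRF1 match that began 30 bases before the start site, and it also held the annotated start of Morn5 on the other strand. The Uqcrh window held an ETS match that began 10 bases before the start site, and the Cox7a2l window held neither motif. Over all 68 member windows, NRF1 letters were present in 16 (23.5%) against 4.78% of 27025 promoters of the same length, and ETS letters in 15 (22.1%) against 9.12%. The YY1 motif, searched as AANATGGCG, was present in 8 (11.8%) against 2.51%, and TATAAA in 7 (10.3%) against 14.2%. These are matches of letters, not measured binding. In the pooled LSEC-like cells the transcripts of the regulators themselves stood at 49.1 CPM in the control and 42.4 CPM in cirrhosis for Nrf1, at 38.5 and 36.3 CPM for Gabpa and at 120.9 and 135.9 CPM for Yy1.

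Across cell types, the share of UMIs from respiratory chain genes was highest in hepatocyte-like cells in both libraries. The 81 genes took 3.33% of all UMIs of hepatocyte-like cells in the control (95% Clopper-Pearson interval 3.30% to 3.36%) and 3.64% in cirrhosis (3.62% to 3.66%). Cholangiocyte-like cells stood at 1.85% and 1.90%, and T or NK cell-like cells at 1.81% and 1.80%. The other classes lay between 1.37% and 1.93%, and their order was not the same in both libraries. Kupffer cell-like cells were second lowest in the control, at 1.40% (1.38% to 1.41%), and second highest in cirrhosis, at 1.93% (1.92% to 1.94%). Pooled LSEC-like cells stood at 1.43% and 1.502%. Large-vessel endothelial-like cells, the lining of arteries and veins, stood at 1.54% and 1.52%. Hepatocyte-like barcodes were shallow, with medians of 1662 and 2180 UMIs, and took 0.76% and 0.35% of their UMIs from LSEC markers.

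**Figure D1:**
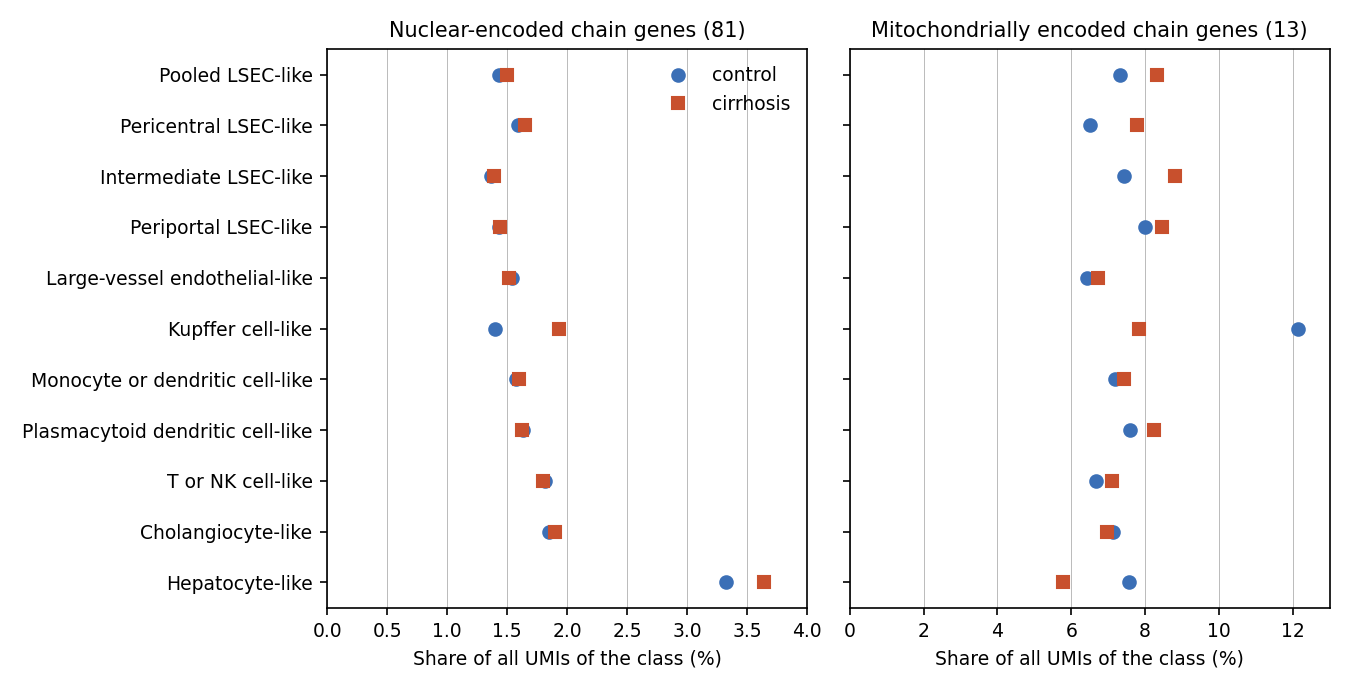
Share of all UMIs of each class (%, x axis) taken by the 81 nuclear-encoded members (left) and the 13 mitochondrially encoded genes (right), for the control (circles) and cirrhosis (squares) libraries, 1 point per library. Control and cirrhosis points nearly coincide for the nuclear-encoded genes except in Kupffer cell-like cells (1.40% and 1.93%) and hepatocyte-like cells (3.33% and 3.64%), while the mitochondrial share is lower in cirrhosis in both of these classes.

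Single members departed from this common level in certain classes. For each class a member's share of all member UMIs was set against its median over the 10 classes of the same library, as a description with no test. Cox5a, a structural subunit of complex IV, departed most by the smaller of its values in the libraries. Kupffer cell-like cells held 601 CPM in the control and 889 CPM in cirrhosis, against 185 and 209 CPM in intermediate LSEC-like cells. Hepatocyte-like cells held 679 and 794 CPM, and monocyte or dendritic cell-like cells 277 and 399 CPM. Relative to the other members the Kupffer cell-like level was 1.32 on the log2 scale above the median in the control and 1.42 above it in cirrhosis. Uqcrq, a small subunit of complex III, stood out in hepatocyte-like cells, with relative excesses of 1.36 and 1.24. Cox7a2l was low in hepatocyte-like cells relative to the other members there, at -1.34 and -1.19. Ndufa8, an accessory subunit of complex I, stood out in pericentral LSEC-like cells, at 1.20 and 2.02. Cox5a has 1 other annotated gene with a near-identical transcript end, so its counts may be shared with that copy.

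Cox7a2l, a COX7A family gene linked to the joining of complexes III and IV, of which C57BL/6 mice carry a short form reported not to support it, was higher in cirrhosis in all 10 classes, with log2 ratios from 0.22 to 0.83. Of the 73 members that were measured in every class (a mean of at least 20 CPM and a count in both libraries), 8 were higher in all 10 classes, and 4.45% of the 4183 genes measured in all classes were. The 8 members were Cox7a2l, Cox5a, Cox7b, Uqcrh, Ndufa8, Atp5d, Atp5f1 and Atp5g2. Cox5a ranged from 0.17 to 0.56. For Cox7b, Uqcrh, Ndufa8, Atp5d, Atp5f1 and Atp5g2 the smallest of the 10 ratios lay between 0.00093 and 0.091. Ndufa5, an accessory subunit of complex I, was lower in all 10 classes, with ratios from -0.49 to -0.027, against 11.7% of all measured genes lower in all of them. Classes of 1 library share its handling and its free RNA, so the 10 ratios are not 10 separate observations.

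**Figure D2:**
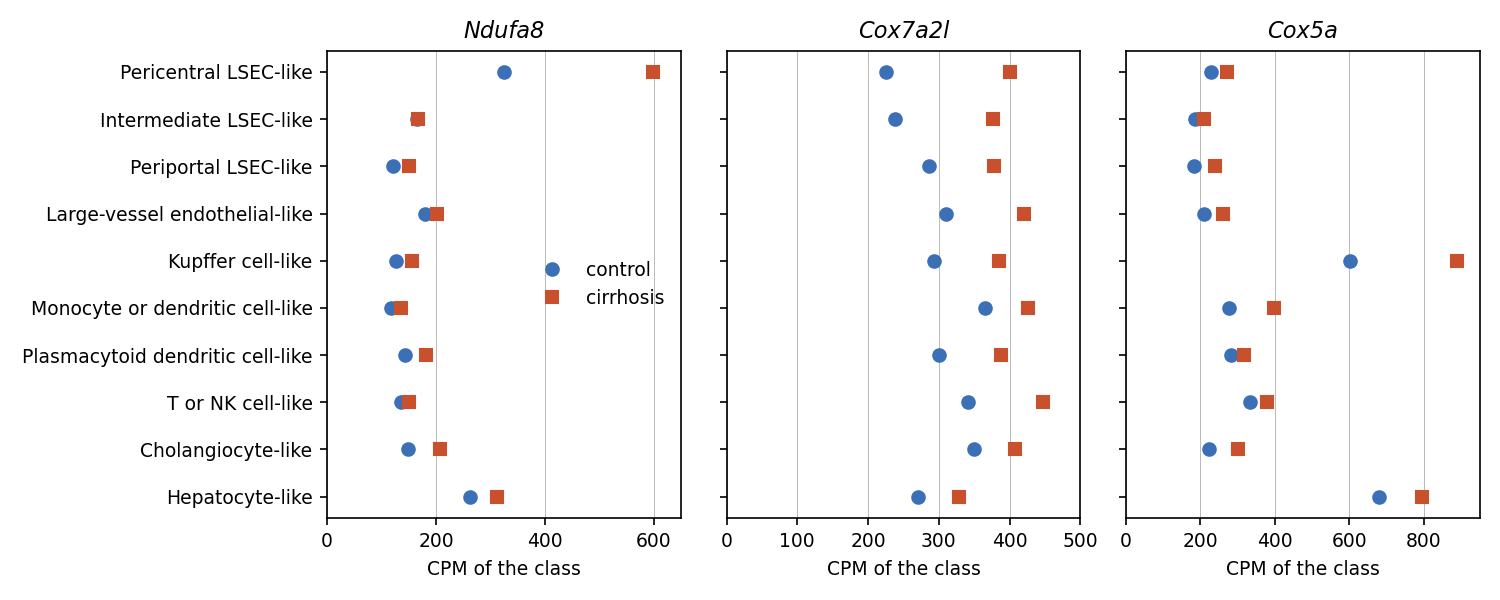
Level in CPM (x axis) of Ndufa8, Cox7a2l and Cox5a in each class, for the control (circles) and cirrhosis (squares) libraries. Ndufa8 is highest in pericentral LSEC-like cells (326 and 598 CPM), Cox7a2l is higher in cirrhosis in each of the 10 classes, and Cox5a is highest in Kupffer cell-like and hepatocyte-like cells.

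In LSEC-like cells the chain as a whole was little different between the libraries, and the complexes did not differ alike. The summed share of the 81 genes gave a log2 ratio of cirrhosis over control of 0.068 (95% interval 0.062 to 0.075), a 1.05-fold difference. Of the 73 measured members 37 were higher and 36 lower, which is close to the 44.6% of all 6912 measured genes that were higher. The median member ratio was 0.019 and the median of all genes -0.034. At least 25% higher were 7 members (12.6% of all genes), and at least 20% lower, the same distance on the log scale, were 2 (16.9% of all genes). At least 1.5-fold higher were 2 members (5.14% of all genes), and none was 1.5-fold lower (5.84% of all genes). Under median-of-ratios scaling, which moves every gene of the class by 0.034, 47 members were higher and 26 lower. The 44.6% does not apply there, since all genes move by the same amount, and no share of all genes is given. Cytosolic ribosomal protein genes, which are part of the denominator, took 7.69% of UMIs in the control and 10.5% in cirrhosis.

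Complex I, the largest complex, differed little in its sum and contained both of the extremes. Its summed level was 5368 CPM in the control and 5329.7 CPM in cirrhosis (log2 ratio -0.010, interval -0.021 to 0.00051). Of its 36 measured members 13 were higher (44.6% of all genes were). Without Ndufa8 the sum was lower in cirrhosis, at 5175 and 4993 CPM (-0.052, interval -0.063 to -0.041). The sign of the full sum depended on the processing. It was 0.024 with median-of-ratios scaling and 0.057 with mitochondrial, ribosomal protein and haemoglobin genes left out of the denominator, but -0.056 with the zones weighted equally and -0.048 in cells of 5000 to 15000 UMIs. Ndufa8 stood at 193 CPM in the control and 336 CPM in cirrhosis, 1.75-fold higher (log2 ratio 0.80, interval 0.75 to 0.86), and no other member of the complex was 25% higher. Its pooled ratio includes the mix of zones, since it was highest in pericentral cells, which numbered 679 in the control and 1067 in cirrhosis. By zone its ratio was 0.88 in pericentral, 0.025 in intermediate and 0.32 in periportal cells. Ndufb5, a membrane-arm subunit, had the next highest pooled ratio, at 156 and 194 CPM (0.31). At the other end, Ndufa5 stood at 164 and 129 CPM (-0.35, -0.41 to -0.28). Ndufs8, a core subunit that carries iron-sulfur clusters, stood at 95.8 and 75.8 CPM (-0.34, -0.42 to -0.25). The other measured members lay between -0.25 and 0.17, among them Ndufb9 at 238 and 199.9 CPM (-0.25). Ndufa4, named for complex I but known as a complex IV subunit, had 451 and 470.1 CPM (0.061), and its hypoxia-inducible paralogue Ndufa4l2 was near 0, with 2 and 10 UMIs. With Ndufa4 counted in complex IV, the summed ratio was -0.017 (-0.028 to -0.0057) for complex I and 0.061 (0.048 to 0.075) for complex IV.

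Complex II was slightly lower in sum, at 377 CPM in the control and 357 CPM in cirrhosis (-0.078, interval -0.12 to -0.037), which rested on 1 of its 4 genes. The sum was -0.011 with the reduced denominator and 0.0059 against the control cells of first-round cluster 3 alone, so its sign did not hold in every setting. Sdha, the flavoprotein that oxidises succinate, stood at 172 and 139 CPM (-0.30, -0.37 to -0.24). The iron-sulfur subunit Sdhb stood at 71.5 and 73.8 CPM (0.046). The membrane anchors Sdhc, at 75.2 and 84.3 CPM (0.16), and Sdhd, at 58.5 and 59.8 CPM (0.031), were not lower either.

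Complex III was higher in sum, at 1604 and 1737 CPM (0.11, interval 0.095 to 0.13), with 5 of 8 members higher (44.6% of all genes were). Uqcrh, the hinge protein next to cytochrome c1, stood at 303 CPM in the control and 404 CPM in cirrhosis (0.42, 0.37 to 0.46). Uqcrfs1, the Rieske iron-sulfur protein, stood at 73.9 and 95.9 CPM (0.38). The core protein genes went the other way, with Uqcrc1 at 99.4 and 92.5 CPM (-0.10) and Uqcrc2 at 129 and 122 CPM (-0.080). Uqcrb stood at 327 and 340.4 CPM (0.060) and Uqcr11 at 286 and 268 CPM (-0.094). Uqcrh, Uqcr11 and Uqcrb each have annotated genes with near-identical transcript ends.

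Complex IV was higher in sum by 0.061 (0.047 to 0.076), from 3046 to 3179 CPM, and 4 of its 10 measured members were higher (44.6% of all genes were). Cox7a2l stood at 245 CPM in the control and 386 CPM in cirrhosis, 1.58-fold higher (0.66, 0.61 to 0.70). Cox5a stood at 195 and 239 CPM (0.30, 0.24 to 0.35). The members with the most UMIs differed little: Cox7c stood at 439 and 434 CPM, Cox8a at 437 and 426 CPM, and Cox6c at 417 and 413 CPM. Cox6a1, the ubiquitous form of subunit 6A, stood at 324 and 291 CPM (-0.15), and Cox7a2 at 318 and 296 CPM (-0.10), while Cox6b1 was at 298 and 309 CPM (0.052). The tissue-restricted isoforms were at or near 0. Cox7a1 and Cox8b, the forms of heart and skeletal muscle, had 4 to 9 UMIs per library, Cox6b2 had 3 and 21, and Cox7b2 and Cox8c had none, which at a limit of 3 UMIs of the class total allows up to 0.14 CPM in the control and 0.095 CPM in cirrhosis.

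Complex V was the complex with the largest summed ratio in LSEC-like cells, at 3929 CPM in the control and 4414 CPM in cirrhosis (0.17, interval 0.16 to 0.18). Of 15 measured members 12 were higher (44.6% of all genes were), with a median of 0.20. Atp5d, the delta subunit of the rotor stalk, stood at 183 and 240.3 CPM (0.40, 0.34 to 0.45). Atp5f1, subunit b of the peripheral stalk, stood at 199.7 and 260.5 CPM (0.38), and Atp5j, the coupling factor 6 of the same stalk, at 338 and 431 CPM (0.35). The catalytic subunits Atp5a1, at 328 and 317 CPM (-0.050), and Atp5b, at 321 and 336 CPM (0.066), lay close to 0. Of the 3 genes for the c ring, Atp5g2 stood at 264 and 323 CPM (0.29), Atp5g1 at 126 and 138 CPM (0.13) and Atp5g3 at 178 and 181 CPM (0.019). Atp5h stood at 458 and 529.8 CPM (0.21) and Atp5l at 371 and 425 CPM (0.20). The lowest ratio was that of Atp5k, subunit e, at 219 and 201 CPM (-0.12). Atp5l has 12 other annotated genes with near-identical ends, and without the 18 members with such copies the ratio of the complex was 0.19. Atp5s, which matched by name but is not a subunit of the enzyme, had 9.05 and 6.15 CPM and did not reach the minimum. Nor did Atp5o, with 0 and 1 UMI, whose counts were held by the row Atp5o.1 (154 and 166 CPM).

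**Figure D3:**
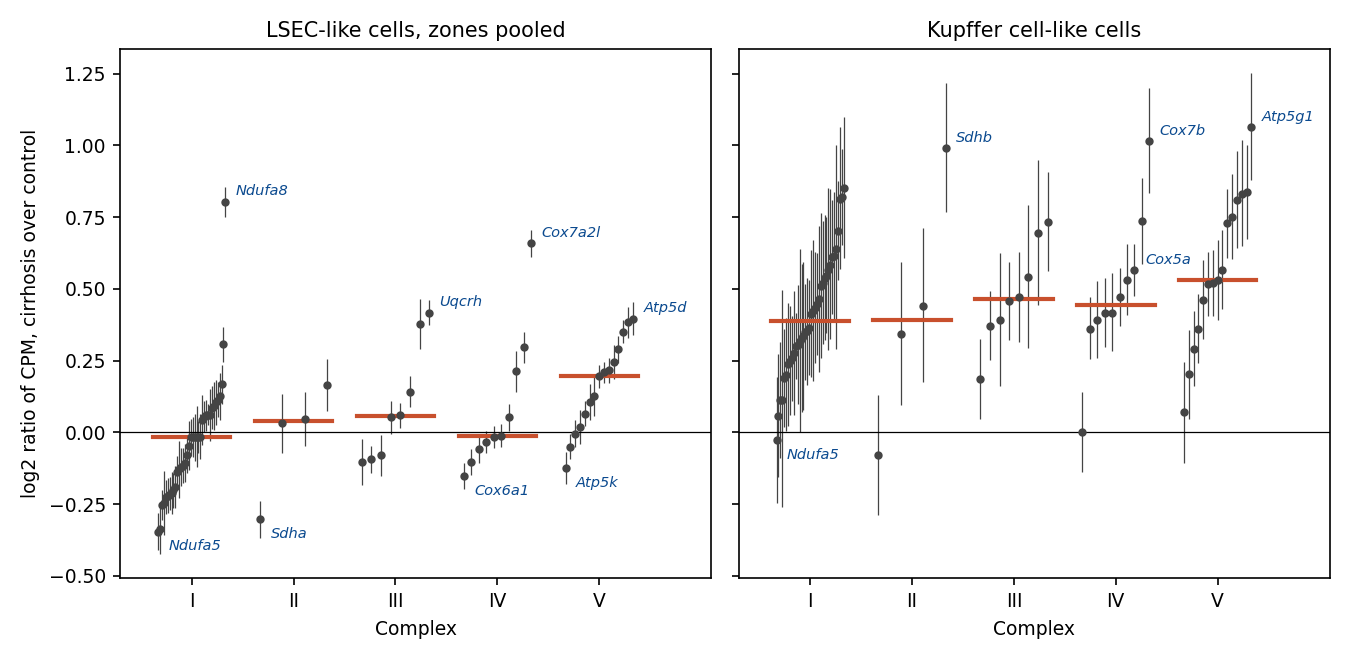
Log2 ratio of cirrhosis over control (y axis) for each of the 73 measured members, by complex (x axis), in LSEC-like cells (left) and Kupffer cell-like cells (right). Bars are 95% intervals of counting error and red lines the median of each complex: Ndufa8 (0.80) and Cox7a2l (0.66) stand apart in LSEC-like cells, and 71 of 73 members lie above 0 in Kupffer cell-like cells.

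In each zone the summed ratio of all members was below the pooled one, though single complexes were not all closer to 0. The summed ratio was 0.052 (0.040 to 0.064) in pericentral, 0.022 (0.012 to 0.031) in intermediate and 0.011 (-0.0048 to 0.026) in periportal cells, all at or under 1.04-fold. Weighting the zones equally brought the LSEC-like ratio down to 0.029, since the cirrhosis library held more pericentral cells (1067 against 679). Complex V was the highest of the complexes in each zone (0.17, 0.13 and 0.12), and complex I was below 0 in each (-0.021, -0.081 and -0.074, or -0.093, -0.085 and -0.084 without Ndufa8). Complex II was at -0.12 in pericentral and -0.11 in intermediate cells, and complex IV was at 0.019, 0.037 and -0.013. Higher members numbered about as many as among all genes, at 32 of 73 in pericentral (44.4% of all genes), 34 in intermediate (44.5%) and 36 in periportal cells (45.3%). Of 73 members, 24 were higher in all 3 zones (29.9% of all genes), 30 were lower in all 3 (39.9% of all genes) and 19 were mixed. Within the pericentral class the 2 clusters differed, at 0.11 (0.088 to 0.12) and -0.027 (-0.044 to -0.010). A low-depth intermediate cluster led by Gm42418, a transcript that overlaps ribosomal RNA, had the lowest shares, at 1.13% in the control and 1.01% in cirrhosis. Large-vessel endothelial-like cells gave -0.022 (-0.052 to 0.0072), with 28 of 73 members higher (48.8% of all genes). Unnamed endothelial cells gave 0.13 (0.12 to 0.14). Unlike in the 3 zones, complex I was higher in them, at 0.082 (0.060 to 0.10), and their mitochondrial transcripts were at -0.047.

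**Figure D4:**
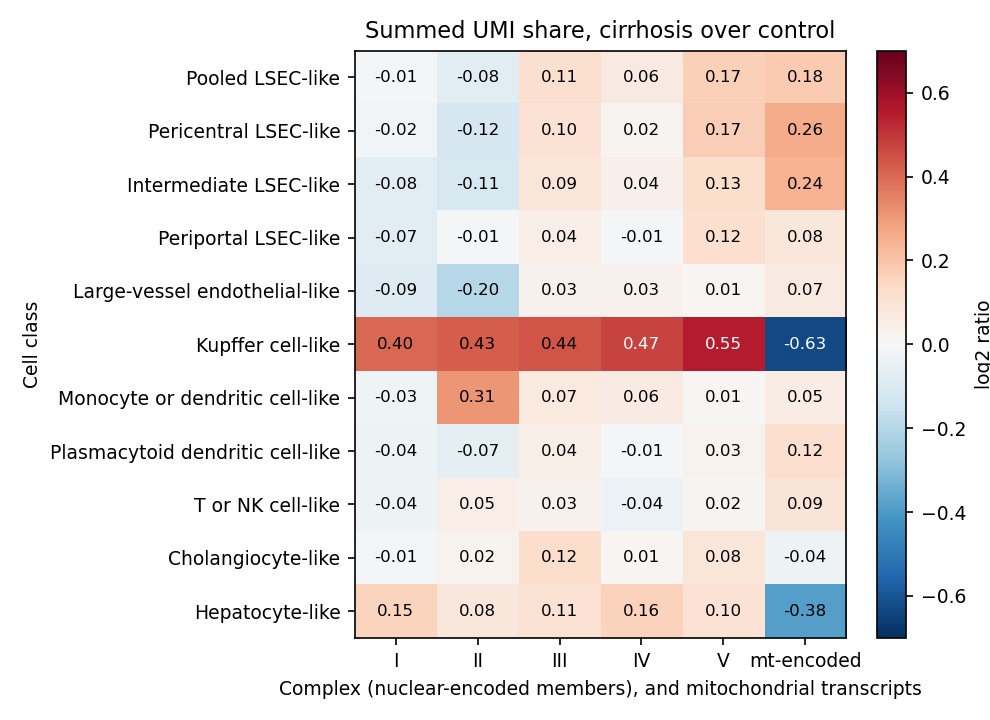
Log2 ratio of the summed UMI share, cirrhosis over control, for each complex (columns I to V, nuclear-encoded members) and for the mitochondrially encoded genes (last column) in each class (rows). Kupffer cell-like cells are above 0 for all 5 complexes (0.40 to 0.55) and at -0.63 for the mitochondrial transcripts.

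A pericentral excess of the chain was present in both libraries. In the control, the members took 1.59% of UMIs in pericentral against 1.43% in periportal cells (log2 difference 0.15, interval 0.14 to 0.17), and in cirrhosis 1.65% against 1.44% (0.19, 0.18 to 0.20). Intermediate cells as a class were lowest in both libraries, at 1.37% and 1.39%, so the class shares did not form a gradient across the zones. That class includes the low-depth cluster led by Gm42418, at 1.13% in the control and 1.01% in cirrhosis. Its other clusters were at 1.45% and 1.39% in the control and at 1.45% and 1.43% in cirrhosis, near the periportal level. In the control 68 of 73 members were higher in pericentral cells (55.5% of all genes) and in cirrhosis 67 of 73 (53.8% of all genes). In both libraries 62 were so, for which no share of all genes is given. The median member difference was 0.15 in the control and 0.18 in cirrhosis, against medians of 0.029 and 0.020 over all genes. Most single differences were small, with 4 members at least 25% higher in the control (11.5% of all genes) and 3 in cirrhosis (11% of all genes). At least 20% lower was 1 member in the control (7.72% of all genes) and none in cirrhosis (10.9% of all genes). Complex I had the largest zonal difference of the 5 sums in both libraries, 0.22 and 0.27, which rested on Ndufa8. Without that gene it was 0.17 in the control, level with complex II (0.17), and 0.16 in cirrhosis, beside 0.17 for complex IV. All members without Ndufa8 differed by 0.13 and 0.15. Ndufa9, an accessory subunit, differed by 0.47 in the control and 0.20 in cirrhosis, and Ndufc2 by 0.40 and 0.12. Ndufs1, the largest core subunit, differed by 0.11 and 0.43. Mitochondrially encoded transcripts had the opposite difference between these zones, with 6.50% in pericentral and 7.99% in periportal cells of the control, and 7.77% and 8.45% in cirrhosis. Intermediate cells had 7.43% in the control and 8.80% in cirrhosis, where they were the highest as a class. In cirrhosis the cluster led by Gm42418 stood at 12.2%, and the other intermediate clusters at 8.37% and 8.18%, below the periportal 8.45%.

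Ndufa8 was the only member at least 25% higher in pericentral cells of both libraries, and its difference between the libraries lay chiefly in the pericentral zone. In the control it stood at 326 CPM in pericentral, 165 CPM in intermediate and 120.3 CPM in periportal cells. In cirrhosis the levels were 598, 168 and 150.3 CPM. The pericentral level was thus above the periportal one by 1.44 (interval 1.29 to 1.58) on the log2 scale in the control and by 1.99 (1.89 to 2.10) in cirrhosis. Between the libraries the log2 ratio was 0.88 (0.80 to 0.96) in pericentral, 0.025 in intermediate and 0.32 in periportal cells. Outside the LSEC-like zones it ranged from 118 CPM in control monocyte or dendritic cell-like cells to 313 CPM in hepatocyte-like cells of the cirrhosis library. The clusters of the pericentral class were present in unlike proportions, with 238 and 441 cells in the control and 619 and 448 in cirrhosis. The part of this mix in the pericentral ratios of Ndufa8 and of Lhx6, described next, was not tested.

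The genes next to Ndufa8 were looked at after this pattern was seen. In GENCODE M21 on GRCm38, Ndufa8 lies at chr2:36036326-36049406 on the minus strand, and Lhx6, a LIM homeobox gene that is on the list of pericentral LSEC markers used to name the zones, at chr2:36081953-36105408 on the same strand, 32.5 kb upstream. Lhx6 stood at 88.5 CPM in pericentral cells of the control and at 197 CPM in those of the cirrhosis library (1.15, interval 1.01 to 1.30), at 10.2 and 14.6 CPM in intermediate cells, and at 0.70 and 2.46 CPM in periportal cells. Both genes were thus highest in pericentral cells and higher there in cirrhosis. Morn5, which lies between them on the plus strand, had 0 and 7 UMIs in pericentral cells. Mrrf, on the far side of Lhx6, stood at 46.5 and 47.9 CPM there (0.042, -0.18 to 0.27). Whether transcripts that start at Lhx6 add to the Ndufa8 counts was not tested.

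Cox7a2l ran the other way between zones in the control, at 226 CPM in pericentral and 286 CPM in periportal cells (-0.34, -0.46 to -0.23), and was nearly level in cirrhosis, at 400.2 and 377 CPM (0.084). Its ratio between the libraries was 0.83 in pericentral, 0.66 in intermediate and 0.40 in periportal cells. Uqcrh was close to level between zones in the control, at 309 and 319.8 CPM, and stood at 433 and 379.96 CPM in cirrhosis.

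**Figure D5:**
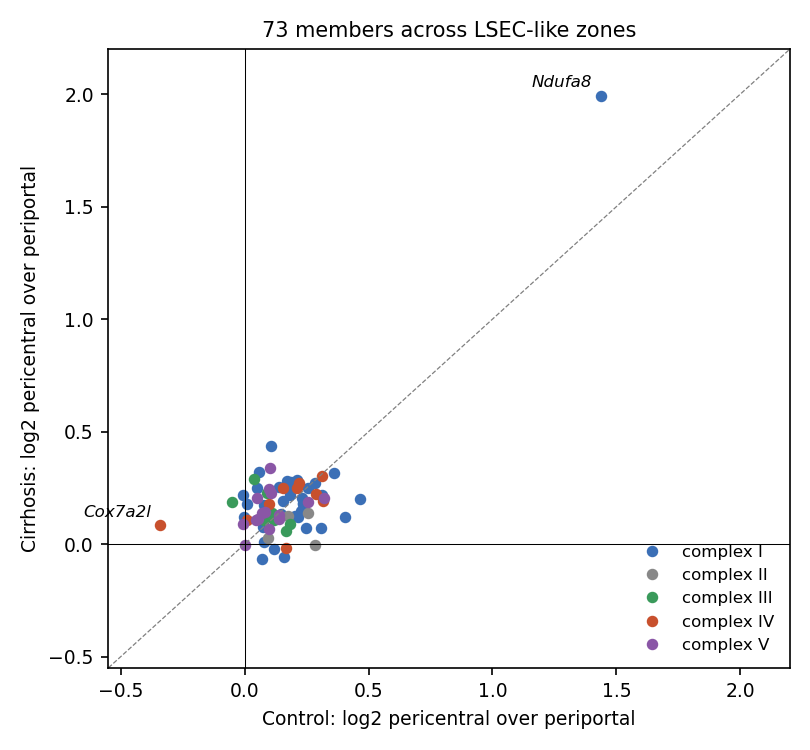
Log2 ratio of pericentral over periportal level for the 73 members, in the control library (x axis) and the cirrhosis library (y axis), coloured by complex, with the dashed line marking equal values. Most members lie slightly above 0 on both axes, Ndufa8 lies far out at 1.44 and 1.99, and Cox7a2l is at -0.34 in the control.

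Kupffer cell-like cells had the largest summed ratio of the 10 classes as clustered here, but not under a stricter cell filter, where they were at 0.35 and hepatocyte-like cells at 0.74. The members took 1.40% of UMIs in the control (304 cells) and 1.93% in cirrhosis (500 cells), a 1.38-fold difference (log2 ratio 0.47, interval 0.45 to 0.49). Of 73 measured members 71 were higher (40.9% of all genes) and 54 were at least 25% higher (22.5% of all genes), with none 20% lower (37.1% of all genes). At least 1.5-fold higher were 18 (11.2% of all genes), with none 1.5-fold lower (22.3% of all genes), and the median was 0.45 against -0.14 over all genes. Median-of-ratios scaling moved all genes of the class by 0.14, which gives 0.61. All 5 complexes were higher: complex I by 0.40, complex II by 0.43, complex III by 0.44, complex IV by 0.47 and complex V by 0.55. Atp5g1 had the highest ratio, at 134 CPM in the control and 279 CPM in cirrhosis (1.06, 0.88 to 1.251). Cox7b, a small complex IV subunit, stood at 139.6 and 282 CPM (1.02), and Sdhb at 94.4 and 187 CPM (0.99). Cox5a stood at 601 and 889 CPM (0.56, 0.47 to 0.66). The members below 0 were Sdha, at 138 and 131 CPM (-0.081), and Ndufa5, at 123 and 121 CPM (-0.027), whose intervals included 0.

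The mitochondrially encoded subunits had the opposite sign in these cells. They took 12.1% of UMIs in the control and 7.83% in cirrhosis (-0.63, interval -0.64 to -0.62), and all 13 genes were lower. mt-Co1 stood at 23062 and 14029.6 CPM (-0.72) and mt-Nd2 at 8444 and 4558 CPM (-0.89). For 1 UMI of the nuclear-encoded members there were 8.69 UMIs of mitochondrial transcripts in the control and 4.06 in cirrhosis. In pooled LSEC-like cells the same ratio was 5.12 and 5.55, and the mitochondrial share was 7.33% and 8.33% (0.18), with 8 of 13 genes higher. There mt-Co2, at 8656 and 10506 CPM (0.28), was the highest and mt-Atp8, at 158 and 98.5 CPM (-0.68), the lowest. Hepatocyte-like cells shared the sign of the Kupffer cell-like class, with nuclear-encoded members higher by 0.13 (0.11 to 0.14), 56 of 73 of them higher (41.6% of all genes), and mitochondrial transcripts at 7.55% and 5.78% (-0.38), all 13 lower. The hepatocyte-like sum was not stable in size, at 0.049 with each cell weighted equally, 0.29 in cells of 5000 to 15000 UMIs and 0.74 under a stricter cell filter, where 208 of the 451 control cells of the class were unnamed endothelial cells in the reported clustering. Ndufa13, an accessory subunit of complex I, had the highest ratio in hepatocyte-like cells, at 372 and 565 CPM (0.60, interval 0.47 to 0.74). Atp5a1, the alpha subunit of the ATP synthase, had the lowest, at 829 and 702 CPM (-0.24, -0.34 to -0.14). Barcodes with over 20% of mitochondrial counts had been left out.

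Other features of the Kupffer cell-like class also differed between the libraries. The class took 2.15% of UMIs from Kupffer cell markers in the control and 2.23% in cirrhosis, but 0.78% and 0.29% from the 10 LSEC markers, all of which were detected in both. Stab2, an LSEC receptor, stood at 732 and 297 CPM. Clec4f, a Kupffer cell marker, was also lower in cirrhosis, at 3783 and 2460 CPM, though the summed share of the Kupffer cell markers was not. The part of any difference in the macrophages that fill the class was not tested. Median depth was 5308 and 3057 UMIs, and the 7 cycling markers summed to 38.9 and 633 CPM. In the cells with at most 0.2% of counts from LSEC markers (138 and 372), chosen after the data were seen, the summed ratio was 0.48 (0.46 to 0.51) and that of the mitochondrial transcripts -0.70. In those without a count of 6 cycling markers (276 and 331) the ratios were 0.40 (0.38 to 0.42) and -0.68. The median depth of these cells was 4512.5 and 2327 UMIs, below that of the whole class. In cells of 5000 to 15000 UMIs the summed ratio was 0.52 (0.48 to 0.55). At a lower clustering resolution, which merged these cells with monocytes, the summed ratio was 0.24. Of the related lists in these cells, 9 of 13 measured genes of glycolysis were higher, with the highest median, 0.93, and a summed ratio of 1.01. Beside them 58 of 66 measured mitochondrial ribosomal protein genes were higher (40.9% of all genes were), with a median of 0.45, and 10 of 11 genes of fatty acid oxidation, with a median of 0.51. Genes of the TCA cycle were divided, with 8 of 13 higher and a median of 0.032, and 86 of 93 cytosolic ribosomal protein genes were higher, with a median of 0.59. Fewer mitochondrial transcripts per cell and more of the other transcripts cannot be told apart in shares of UMIs.

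In monocyte or dendritic cell-like cells the ratio was 0.022 (-0.00065 to 0.044), in plasmacytoid dendritic cell-like cells -0.0030, in T or NK cell-like cells -0.011 and in cholangiocyte-like cells 0.036 (0.018 to 0.054). In these classes 30 to 39 of 73 members were higher, against 47.7% of all genes in plasmacytoid, 39.5% in monocyte or dendritic, 45.1% in T or NK and 44.2% in cholangiocyte-like cells. The small complex II sum was higher by 0.31 in monocyte or dendritic cell-like cells.

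Other genes of mitochondrial metabolism gave a mixed picture in pooled LSEC-like cells. All 6 measured carriers and porins of the mitochondrial membranes were higher (44.6% of all genes were), with a median of 0.35, including the ADP/ATP carrier Slc25a4 at 179 and 242 CPM (0.44) and the porin Vdac2 at 186 and 248 CPM (0.41). Of 13 genes of the TCA cycle 9 were higher, with a median of 0.055. Of 25 measured assembly factors 9 were higher (median -0.071), of 69 mitochondrial ribosomal protein genes 43 (median 0.057), and of 7 regulators of mitochondrial biogenesis 2 (median -0.14). All 12 measured genes of glycolysis, the cytosolic pathway that also yields ATP, were higher, with a median of 0.40, among them Gapdh at 315 and 556 CPM (0.82) and Ldha at 200.5 and 299 CPM (0.58). Pdk4, a kinase that inhibits pyruvate dehydrogenase, stood at 57.1 and 21.7 CPM (-1.40). Of the subunits that the name pattern misses, Cox4i1 of complex IV stood at 611 and 659.5 CPM (0.11) and Ndufab1 of complex I at 116 and 109 CPM (-0.090). The missed ATP synthase subunits were not higher, with Usmg5 at 137 and 116 CPM (-0.25) and 2010107E04Rik at 194 and 193 CPM (-0.0035). Atpif1, which is not a subunit but an inhibitor of the ATP synthase, stood at 278 and 381 CPM (0.46). Across the 20 profiles of 10 classes in 2 libraries, the gene outside the members whose log2 level was most like that of their sum was Cyc1 (Pearson r 0.97), which encodes cytochrome c1 of complex III and is itself missed by the pattern. Adh5, Asl, Hspd1 and Sephs2 followed (r 0.96 to 0.97), and the profiles share 2 libraries and a high level in hepatocyte-like cells.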

How the data were processed

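The authors deposited UMI counts per gene symbol and barcode as whole numbers, not normalized, for 1 control and 1 cirrhosis library of sorted liver cells. Cell Ranger and the mm10 build are named in the labels, per the submitters' processing notes, without a version. Barcodes needed 500 UMIs, 300 genes, at most 20% mitochondrial and at most 5% erythroid marker counts, which removed 475 and 666. Simulated doublets set the removal of a further 214 and 470, at 0.8% per 1000 barcodes, which left 4953 and 7191.

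Cells were clustered in 2 rounds (scanpy 1.11.5, Leiden, 2000 variable genes, 30 components, 20 neighbours, resolutions 0.5 and 0.8), without the members. Endothelial-like cells entered the second round, centred per library. Names came from marker lists, and the thresholds for names were set after cluster contents, though not member values, had been seen. The control LSEC-like cells came mostly from first-round cluster 2 (1913 cells) and cluster 1 (791), the cirrhosis ones from cluster 3 (2401). Control and cirrhosis hepatocyte-like cells also came from different clusters.

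Counts were summed per class and library and scaled to the class total (CPM). Log2 ratios have exact conditional 95% binomial intervals. Members needed a mean of 20 CPM and a count in both libraries of a class. The calculation of ratios and intervals was checked on Poisson counts drawn from a shared profile at the depth of the whole libraries. Those counts held no variation between cells or mice, so the check says nothing about that variation. The members and lists were chosen with earlier results of these data known. Named members were, per complex, the 3 with the highest level and those with the highest and the lowest ratio in LSEC-like cells, with the isoform families, and others were chosen after their values were seen. Near-identical transcripts were those with 95% identity over 100 bases of the last 300 of GENCODE M21 transcripts (BLAST+ 2.17.0).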

Additional observations from a re-analysis of the deposited data

Results flagged for a closer look

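Summed ratios of cirrhosis over control had opposite signs in different classes, beyond their counting intervals. The mitochondrially encoded subunits were higher in pooled LSEC-like cells (0.18) and lower in Kupffer cell-like (-0.63), hepatocyte-like (-0.38) and cholangiocyte-like cells (-0.04). Complex I was lower in pericentral (-0.02), intermediate (-0.08) and periportal (-0.07) LSEC-like cells and higher in Kupffer cell-like cells (0.40). Complex II was lower in pericentral (-0.12) and intermediate (-0.11) LSEC-like cells and higher in Kupffer cell-like cells (0.43). With 1 library per group the differences between classes were not tested.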

How the results depend on the processing

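The values below are log2 ratios of cirrhosis over control for the summed members of a class, or for a complex in pooled LSEC-like cells, that moved beyond the counting interval of the reported value, which is narrow. Values beside Uqcrb, Cox7a2 or Cox6b2 are ratios of that gene in pooled LSEC-like cells and have the opposite sign to the reported one. Another 59 single-gene values moved and 200 stayed within their interval. A further 103 class, complex and count values stayed within it. The Kupffer cell-like ratio kept its sign in all alternatives run, between 0.24 and 0.61. The sign of complexes I and II in LSEC-like cells and of the intermediate, periportal, large-vessel, monocyte, plasmacytoid and T or NK ratios did not hold under each, and the cause was not tested. With doublets kept the values were 0.080 (pericentral LSEC), 0.37 (Kupffer), -0.0032 (monocyte), 0.047 (plasmacytoid), 0.023 (T or NK) and 0.10 (hepatocyte). Under a stricter cell filter the values were 0.091 (pericentral LSEC), 0.058 (intermediate LSEC), 0.35 (Kupffer), 0.033 (plasmacytoid), 0.011 (cholangiocyte), 0.74 (hepatocyte), -0.022 (complex I) and -0.017 (Uqcrb). At a lower clustering resolution the values were 0.086 (pericentral LSEC), 0.032 (intermediate LSEC), -0.020 (periportal LSEC) and 0.24 (Kupffer). At a higher one the values were 0.093 (pooled LSEC), 0.067 (pericentral LSEC), -0.0055 (intermediate LSEC), 0.024 (complex I), 0.14 (complex III), 0.079 (complex IV) and 0.19 (complex V). Median-of-ratios scaling gave 0.10 (pooled LSEC), 0.10 (pericentral LSEC), 0.057 (intermediate LSEC), 0.041 (periportal LSEC), 0.61 (Kupffer), 0.13 (monocyte), 0.029 (T or NK), 0.081 (cholangiocyte), 0.24 (hepatocyte), 0.024 (complex I), 0.15 (complex III), 0.096 (complex IV) and 0.20 (complex V). A denominator without mitochondrial, ribosomal protein and haemoglobin genes gave 0.14 (pooled LSEC), 0.13 (pericentral LSEC), 0.093 (intermediate LSEC), 0.052 (periportal LSEC), 0.024 (plasmacytoid), 0.068 (T or NK), 0.062 (cholangiocyte), 0.057 (complex I), -0.011 (complex II), 0.18 (complex III), 0.13 (complex IV) and 0.23 (complex V). With control cells of first-round cluster 1 alone the values were 0.15 (pooled LSEC), 0.044 (complex I), 0.18 (complex III), 0.17 (complex IV), 0.26 (complex V) and 0.069 (Cox7a2). With those of cluster 2 the values were 0.058 (pooled LSEC), 0.046 (complex IV) and 0.15 (complex V). With those of cluster 3 the values were 0.044 (pooled LSEC), 0.0059 (complex II), 0.010 (complex III), 0.028 (complex IV), -0.89 (Cox6b2) and -0.11 (Uqcrb). Weighting zones equally gave 0.029 (pooled LSEC), -0.056 (complex I), 0.078 (complex III), 0.014 (complex IV) and 0.14 (complex V). Without the LSEC-like cluster led by Fosb and Egr1 the values were 0.058 (pooled LSEC) and 0.040 (intermediate LSEC). Without the one led by Gm42418 the value was 0.032 (intermediate LSEC). In cells of 5000 to 15000 UMIs the values were 0.034 (pooled LSEC), 0.010 (pericentral LSEC), 0.0071 (intermediate LSEC), -0.061 (large-vessel), 0.52 (Kupffer), 0.29 (hepatocyte), -0.048 (complex I), 0.093 (complex III), 0.026 (complex IV) and 0.13 (complex V). Weighting each cell equally gave 0.037 (pooled LSEC), 0.034 (pericentral LSEC), -0.0026 (intermediate LSEC), -0.0075 (periportal LSEC), -0.056 (large-vessel), -0.015 (monocyte), -0.035 (T or NK), 0.0087 (cholangiocyte), 0.049 (hepatocyte), -0.048 (complex I), 0.076 (complex III), 0.038 (complex IV) and 0.14 (complex V). Without the 18 members with near-identical copies the values were 0.0097 (intermediate LSEC), 0.073 (complex III), 0.11 (complex IV) and 0.19 (complex V). Without Ndufa8 the value was -0.052 (complex I). In cells without a cycling marker count the value was 0.40 (Kupffer). The lower resolution merged Kupffer cell-like cells with monocytes. Under the stricter filter many control LSEC-like cells fell in a mixed cluster and left the class. The settings that left out LSEC-like clusters, Ndufa8, near-identical copies or cycling cells, kept a range of UMIs or weighted each cell equally were chosen after seeing the data. Leaving out members with near-identical copies in the genome was not run, and annotated transcripts were used in its place. No paired analysis was possible because there was 1 library per group. Depth limits the smaller classes, where the intervals of single members are wide.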

Other observations

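Cox6a2, the heart and muscle form of a complex IV subunit that the rule for members leaves out, was found chiefly in plasmacytoid dendritic cell-like cells. It stood there at 889.7 CPM in the control and 705 CPM in cirrhosis (log2 ratio -0.34, interval -0.46 to -0.21). The highest level in any other class was 11.1 CPM, in cholangiocyte-like cells of the control, and pooled LSEC-like cells had 0.51 and 0.29 CPM. Its ubiquitous paralogue Cox6a1 was detected in every class.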
